A study of Danio rerio with 6 samples.

Results

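miR-132 and miR-212 were represented in zebrafish ovarian follicular cells by 3 of the 289 miRNAs analysed, namely dre-miR-132-5p, dre-miR-132-3p and dre-miR-212-5p. They were taken as every row with the zebrafish prefix dre- that carries the exact number of miR-132 or miR-212, whatever the arm or letter, and no such row was left out. The 3p arm of miR-212 was not analysed here. Follicular cells, the somatic layers around the oocyte, were compared between 3 samples of stage IIIb and 3 samples of stage IIIa. Stage IIIb follicles are mid- to late vitellogenic and can be induced to mature by hormones. Stage IIIa follicles are smaller, early vitellogenic and cannot yet mature. Each sample was a pool of mechanically stripped cell layers from many follicles of several untreated females. The fish came from a supplier, and their strain and age were not given in the sources used here.

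miRNAs are short RNAs cut from both arms (5p and 3p) of a hairpin precursor, and bases 2 to 8 of a mature miRNA, its seed, lead the pairing with target mRNAs. In mammals miR-132 and miR-212 are transcribed together under control of the cAMP-responsive transcription factor CREB, and their 3p arms share a seed. In mouse granulosa cells both are induced by luteinizing hormone or its analog hCG, hence their description as gonadotropin-responsive, and they are also well known in neurons. No hormone was given in the present experiment, so the stage of the follicle is the one condition compared.

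The mature sequences are shown because the seed bears on which rows could share targets, and the whole sequence on which could share reads. They are printed 5′ to 3′ as DNA letters, as in the deposited data, with the seed in capitals.
dre-miR-132-5p: aCCGTGGCattagattgttact
dre-miR-132-3p: tAACAGTCtacagccatggtcg
dre-miR-212-5p: aCCTTGGCtctagactgcttact
Both miR-132 arms were 22 nt long and dre-miR-212-5p was 23 nt long. The 5p arms of miR-132 and miR-212 matched at 6 of the 7 seed bases. Counting from 1 at the 5′ end, with the base of dre-miR-132-5p first, they differed within the first 12 bases at G4T, A9T and T10C, of which G4T lies in the seed. Over their whole length they were 5 edits (substitutions, insertions or deletions) apart. No other row of the 289 had the seed of any of the 3, and every row other than these 3 was at least 8 edits away from each. RefSeq lists 4 genes for the family in its GRCz12tu assembly, 2 of miR-132 and 2 of miR-212. They form a pair on each of 2 chromosomes, dre-mir-132-1 next to dre-mir-212 and dre-mir-132-2 next to mir212-2. The study used the GRCz11 assembly, so only names and neighbours were taken from that table. A read of a mature miRNA made from more than one gene cannot be assigned to one of them.

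All 3 miRNAs were among the less abundant of the 289. Values are normalized counts, the reads of each miRNA divided by the authors by a size parameter of the library. The mean over the 6 samples was 80.7 ± 44.9 for dre-miR-132-5p (SD, n = 6), with 205 of the 289 miRNAs higher, 49.96 ± 30.2 for dre-miR-132-3p (SD, n = 6), with 238 higher, and 36.1 ± 12.2 for dre-miR-212-5p (SD, n = 6), with 270 higher. The median of these means was 295 over the 289 miRNAs and 634 over the 214 rows named dre-. The order of the 3 held in most samples, with dre-miR-132-5p above dre-miR-132-3p in 6 of 6 samples and dre-miR-132-3p above dre-miR-212-5p in 5 of 6. The nearest miRNAs in level were dre-miR-430c-3p (81.9) above and ccr-mir-734-p5 (79.9) below dre-miR-132-5p, and PC-3p-4095_1308 (50.6) above and PC-3p-2101_2469 (49.8) below dre-miR-132-3p. Around dre-miR-212-5p stood PC-3p-77075_73 (37.2) and PC-5p-15979_363 (35.99). None of these neighbours differed from its member by more than the spread between samples.

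The normalized total over the 289 miRNAs lay between 1779300 and 3166620 per sample, lowest in stage IIIa replicate 1 and highest in stage IIIb replicate 3. The value of 1 read was taken as the step of which most small values in a library are multiples. On this basis the reads on the listed miRNAs ranged between 1129114 (stage IIIa replicate 1) and 9045233 (stage IIIb replicate 3). Of the 18 values of the 3 miRNAs, 9 fell on a whole number of reads and 9 midway between whole numbers, at a tolerance of 0.01 read. How the authors' program arrives at such fractions was not given in the sources used here. The paper also describes a minimum count that retained miRNAs had to reach in every replicate of either stage. In each stage, the recovered reads of each of the 3 miRNAs fell below that minimum in at least 1 replicate, though some replicates reached it. The recovered reads may therefore not equal the authors' counts. The 95% intervals below come from the exact Poisson formula on the recovered reads. For the 9 values midway between whole numbers they are approximate. All the intervals hold only if the step is 1 read, and they cover counting error only.

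For dre-miR-132-5p the counts were 51.9, 104 and 156 in stage IIIb replicates 1, 2 and 3, against 32.3, 84.7 and 55.1 in stage IIIa replicates 1, 2 and 3. These rest on 73.5, 125 and 446 reads in stage IIIb, against 20.5, 154.5 and 102.5 reads in stage IIIa. Stage IIIb replicates 2 and 3 were above every stage IIIa sample, whereas stage IIIb replicate 1 lay below 2 of the 3, so the stages overlapped. The means were 104 ± 52.1 in stage IIIb and 57.4 ± 26.3 in stage IIIa (SD, n = 3 each), a ratio of 1.81. The log2 fold change, stage IIIb over stage IIIa, was 0.81 (SE 0.57, 95% interval -0.44 to 2.07, limma adjusted p = 0.534), which did not pass the test.

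For dre-miR-132-3p, the arm known as the main guide strand in mammals, the counts were 38.5, 56.4 and 105 in stage IIIb replicates 1, 2 and 3. In stage IIIa they were 14.2, 46.6 and 39.5. The reads behind them numbered 54.5, 68 and 298.5 in stage IIIb, against 9, 85 and 73.5 in stage IIIa. The lowest value, that of stage IIIa replicate 1, rests on 9 reads and has an interval from 6.49 to 26.9 normalized counts. As for the 5p arm, stage IIIb replicates 2 and 3 were the highest samples and stage IIIb replicate 1 lay below 2 of the 3 stage IIIa samples. The means were 66.5 ± 34.1 in stage IIIb and 33.4 ± 17.05 in stage IIIa (SD, n = 3 each), a ratio of 1.99. The log2 fold change was 1.01 (SE 0.66, 95% interval -0.44 to 2.46, limma adjusted p = 0.525), the largest of the 3 miRNAs and rank 34 of the 289 from the most positive down, without passing the test.

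dre-miR-212-5p varied least. Its counts were 31.1, 41.5 and 57.4 in stage IIIb replicates 1, 2 and 3, against 22.1, 34.3 and 30.4 in stage IIIa, from 44, 50 and 164 reads in stage IIIb and 14, 62.5 and 56.5 reads in stage IIIa. Only stage IIIa replicate 2 exceeded a stage IIIb sample, replicate 1. The means were 43.3 ± 13.3 in stage IIIb and 28.9 ± 6.24 in stage IIIa (SD, n = 3 each), a ratio of 1.499. The log2 fold change was 0.55 (SE 0.61, 95% interval -0.79 to 1.88, limma adjusted p = 0.685), and the interval includes both no difference and a change of more than 1 on the log2 scale.

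**Figure D1:**
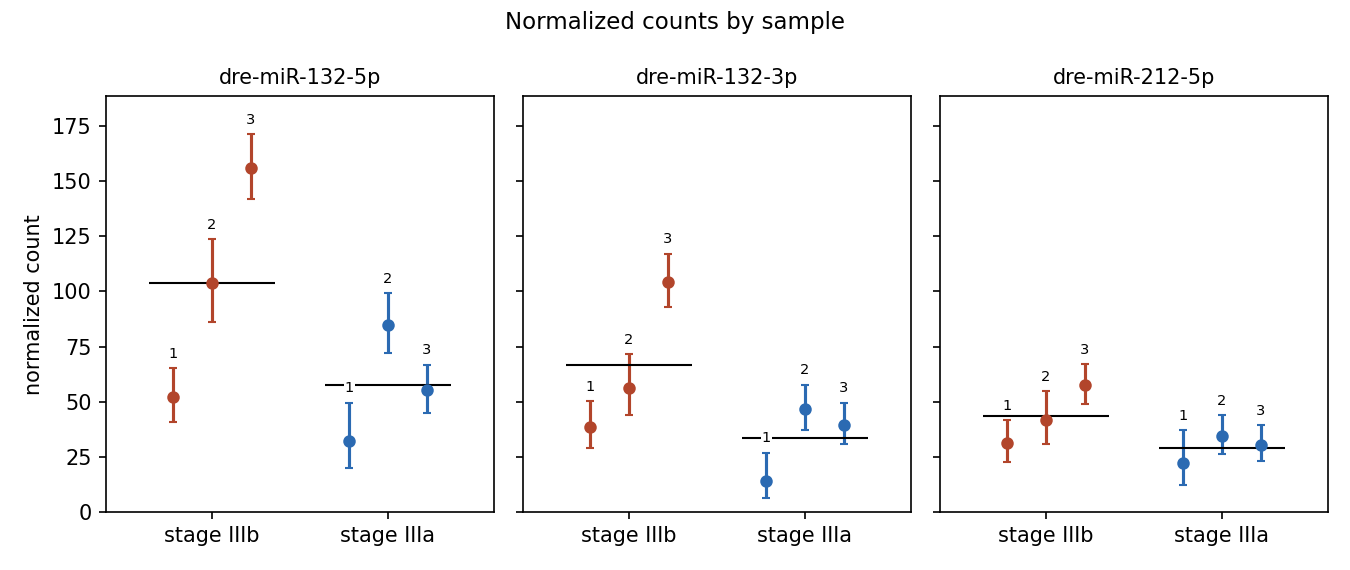
Normalized counts (y axis) of the 3 miRNAs in the 3 stage IIIb and 3 stage IIIa samples, each point labelled with its replicate number, with 95% Poisson counting intervals as bars and the stage mean as a black line. Stage IIIb replicate 3 is the highest and stage IIIa replicate 1 the lowest sample in every panel, and the stages overlap in all 3.

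Set against all miRNAs, none of the 3 was called. In limma on log2(normalized count + 1), 0 of 3 had a higher level in stage IIIb with adjusted p under 0.05, against 7 of the 289 (2.42%). Without adjustment, at the same threshold, the count was again 0 of 3, against 28 of the 289 (9.69%), the unadjusted p being 0.154 for dre-miR-132-3p, 0.181 for dre-miR-132-5p and 0.388 for dre-miR-212-5p. Every stage IIIb sample was above every stage IIIa sample for 0 of the 3, against 34 of the 289 (11.8%). The median log2 fold change was 0.81 over the 3 and 0.15 over the 289, of which 167 (57.8%) were positive. The paper's minimum count could be reached in either stage. A low miRNA can thus have been listed through the stage where it was higher, which can tilt its fold change towards that stage. Recovered reads of the 3 were fewest in stage IIIa replicate 1, at 9 to 20.5. How far the listing shaped their fold changes was not tested. The fold changes also depended on the scaling of the samples. After rescaling to equal totals the median was 0.51 over the 3 and -0.16 over the 289, and the 3 log2 fold changes were 0.71 for dre-miR-132-3p, 0.51 for dre-miR-132-5p and 0.24 for dre-miR-212-5p. With voom weights on recovered reads they were 0.52, 0.41 and 0.21 in the same order, and the median over the 289 was -0.20.

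**Figure D2:**
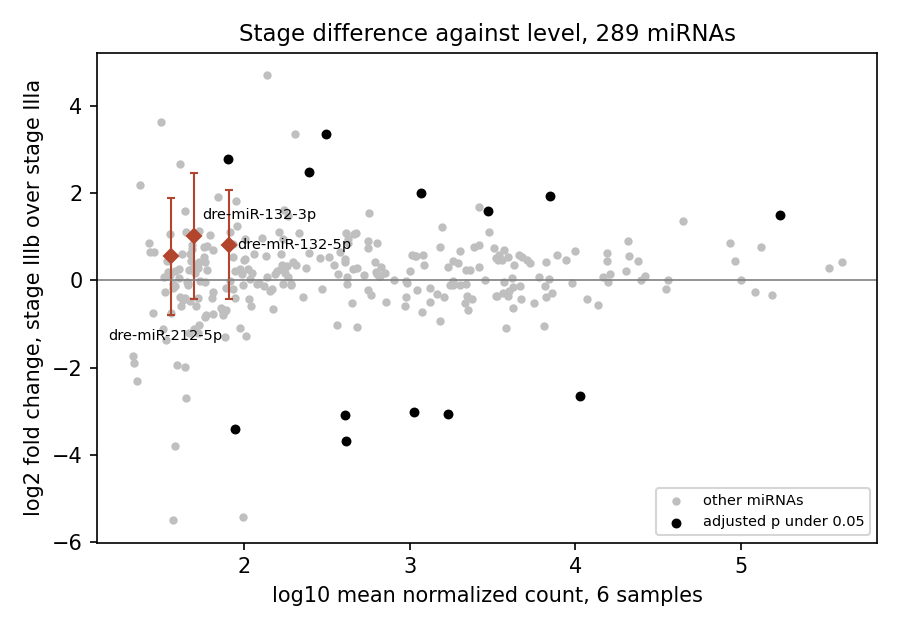
Log2 fold change, stage IIIb over stage IIIa (y axis), against the log10 mean normalized count over 6 samples (x axis) for 289 miRNAs, with the 13 at an adjusted p under 0.05 in black. The 3 miRNAs (diamonds, bars for the 95% interval) lie at the low end of the level range, above 0 but with intervals that cross it.

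The highest and the lowest sample weighed on the stage difference. Without stage IIIa replicate 1 the log2 fold change was 0.50 for dre-miR-132-3p, 0.46 for dre-miR-132-5p and 0.37 for dre-miR-212-5p. Without stage IIIb replicate 3 it was 0.63, 0.46 and 0.33 in the same order. Leaving out both libraries, a choice made after seeing the values, brought it to 0.12, 0.10 and 0.15, with limma adjusted p values of 0.934 or higher. Stage IIIb replicate 3 held the highest and stage IIIa replicate 1 the lowest value of each miRNA. Each of these omissions could therefore only lower the log2 fold change. Without stage IIIb replicate 1, on the other hand, it was 1.24 for dre-miR-132-5p (limma adjusted p = 0.237), the largest value of that arm under any setting. The sign stayed positive for all 3 miRNAs under all 19 alternatives that gave them a value, and none of those alternatives brought an adjusted p under 0.05. A filter at a mean of 30, no trend, robust empirical Bayes and the replicate block leave the fold change unchanged by construction. Their sign could not differ, and all 19 alternatives draw on the same samples and the same listing. The adjusted p values ranged from 0.237 to 0.953 over the 3 miRNAs and 19 alternatives.

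**Figure D3:**
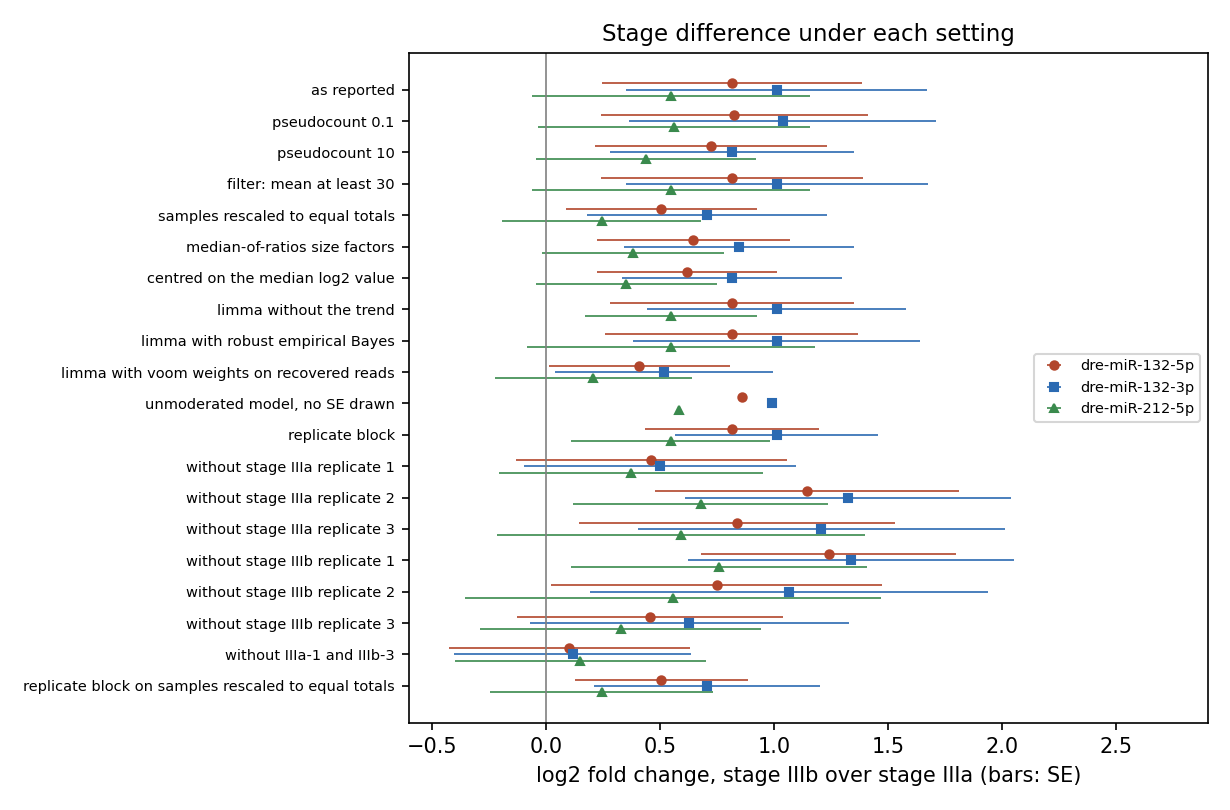
Log2 fold change, stage IIIb over stage IIIa (x axis), of the 3 miRNAs under the reported fit and 19 alternatives (y axis), with the SE as bars where the fit gives one. All points are above 0, and the smallest, from 0.10 to 0.15, come from leaving out stage IIIa replicate 1 and stage IIIb replicate 3 together. Leaving out these lowest and highest samples could only lower the values.

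The order of the samples was nearly the same for the 3 miRNAs and followed the samples' totals. Both arms of miR-132 ranked the 6 samples exactly as the normalized totals did (Spearman's rho 1.0). This pattern was found in 5 of the 289 miRNAs (1.73%), both arms included. dre-miR-212-5p had a rho of 0.94 with the totals, and a rho of at least 0.9 was found in 30 of the 289 (10.4%). As shares, the differences narrowed. dre-miR-132-5p took 28.5, 38.8 and 49.3 ppm (parts per 1000000 of the sample's normalized counts) in stage IIIb replicates 1, 2 and 3, against 18.2, 38.6 and 26.8 in stage IIIa (exact two-sided permutation test, p = 0.20). dre-miR-132-3p took 21.2, 21.1 and 33.0 ppm in stage IIIb, against 7.97, 21.2 and 19.2 in stage IIIa (exact two-sided permutation test, p = 0.30). The smallest p that 3 samples against 3 allow is 0.10. The log2 ratio of the stage mean shares was 0.48 for dre-miR-132-5p and 0.64 for dre-miR-132-3p. Without stage IIIa replicate 1 these were 0.25 and 0.31, and without stage IIIb replicate 3 they were 0.27 and 0.39. These samples held the lowest and the highest share of both arms, so leaving either out could only lower the ratio. Without stage IIIa replicate 2 the ratio of dre-miR-132-5p was 0.79. On this scale 4 of the 6 samples held almost the same share of dre-miR-132-3p, while stage IIIb replicate 3 (95% interval 29.4 to 37.0 ppm) was above and stage IIIa replicate 1 (3.64 to 15.1 ppm) below them, with none of the 4 values inside either interval.

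The share of dre-miR-212-5p was close to even. It was 17.1, 15.5 and 18.1 ppm in stage IIIb replicates 1, 2 and 3, against 12.4, 15.6 and 14.8 in stage IIIa. The means were 16.9 ± 1.31 in stage IIIb and 14.3 ± 1.66 in stage IIIa (SD, n = 3 each, exact two-sided permutation test p = 0.20), and the counting intervals of all 6 samples shared the values from 15.5 to 19.2 ppm. Its highest and lowest samples were 1.46-fold apart on this scale, against 2.72-fold for dre-miR-132-5p and 4.14-fold for dre-miR-132-3p. Together the 3 miRNAs took 66.8, 75.4 and 100.4 ppm in stage IIIb replicates 1, 2 and 3, against 38.5, 75.4 and 60.8 in stage IIIa.

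**Figure D4:**
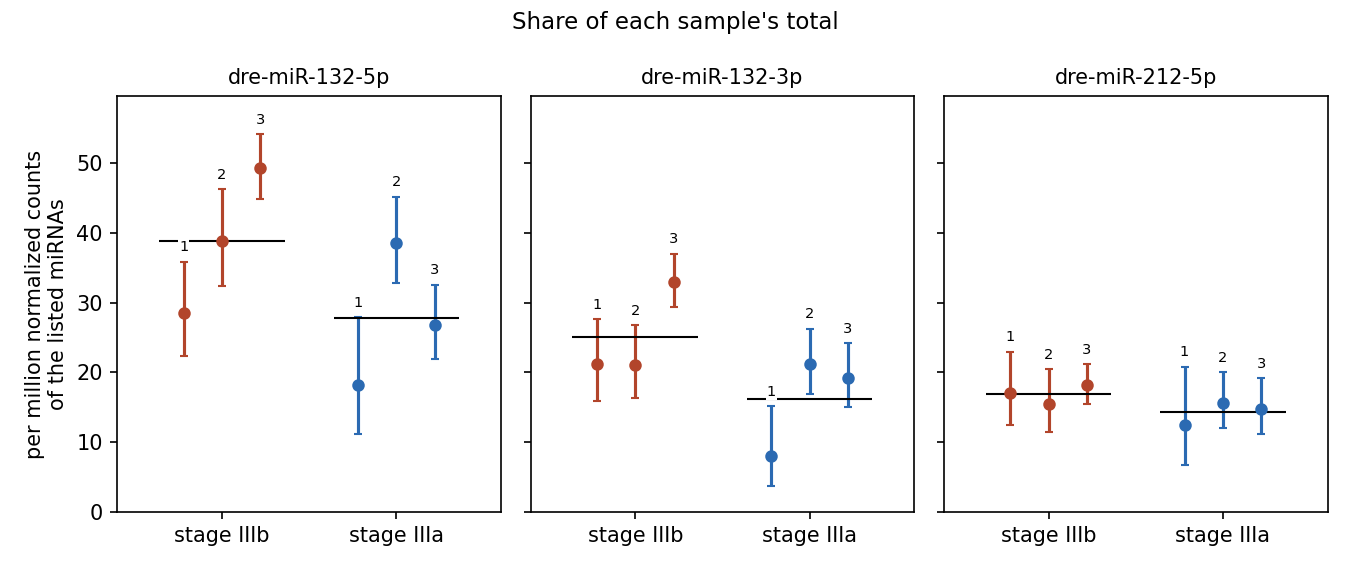
Share of each sample's normalized counts (y axis, ppm) for the 3 miRNAs in stage IIIb and stage IIIa, with replicate numbers, 95% Poisson intervals and stage means as lines. The intervals of dre-miR-212-5p all overlap. For dre-miR-132-3p the value of stage IIIb replicate 3 lies above and that of stage IIIa replicate 1 below the other samples. The interval of stage IIIa replicate 1 still overlaps slightly with that of stage IIIa replicate 3.

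The ratio of the arms of miR-132 does not depend on how a sample was scaled. dre-miR-132-5p exceeded dre-miR-132-3p 1.35, 1.84 and 1.49 times in stage IIIb replicates 1, 2 and 3, against 2.28, 1.82 and 1.39 times in stage IIIa. The 5p arm was thus the higher one in 6 of 6 samples. Its share of both arms was 60.7% ± 3.74 in stage IIIb and 64.1% ± 5.64 in stage IIIa (SD, n = 3 each). The exact 95% binomial interval (Clopper-Pearson, on rounded reads) lay above 50% in 5 of the 6 samples and was 48.0% to 65.7% in stage IIIb replicate 1. It was widest in stage IIIa replicate 1, at 50.6% to 85.3%, where both arms together had 30 rounded reads. Before rounding these were 20.5 and 9 reads, and the place of that lower bound above 50% rests on rounding up. The mean log2 ratio was 0.63 ± 0.23 in stage IIIb and 0.84 ± 0.35 in stage IIIa (SD, n = 3 each), a difference of -0.21 that was within the spread between samples (exact two-sided permutation test, p = 0.50). With 1 sample left out the difference stayed negative, between -0.04 without stage IIIa replicate 1 and -0.40 without stage IIIa replicate 3.

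**Figure D5:**
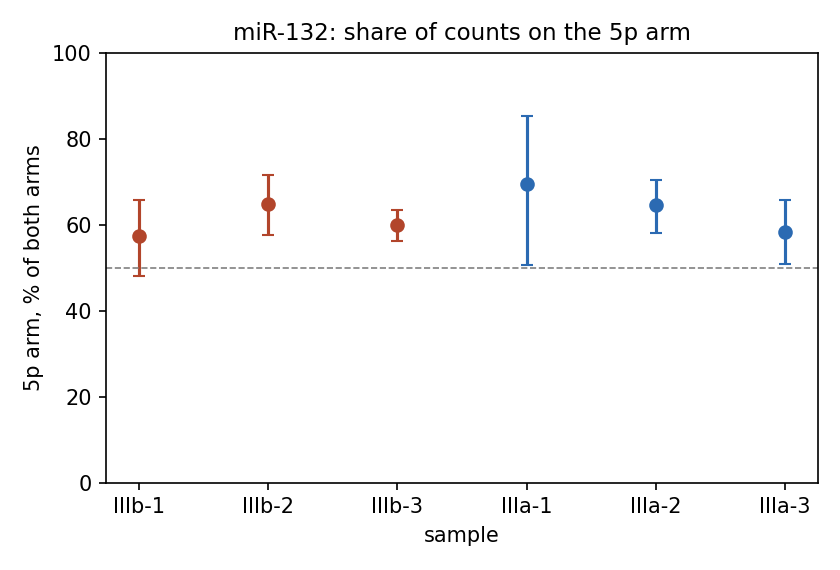
Share of the miR-132 counts on the 5p arm (y axis, percent of both arms) in each of the 6 samples (x axis), with exact 95% binomial intervals and a dashed line at 50%. All points lie between 57.4% and 69.5%, and only the interval of stage IIIb replicate 1 crosses the line. That of stage IIIa replicate 1 stays above the line only because its reads were rounded up.

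Among precursors with both arms listed, miR-132 was one of the most even. Of 32 pairs of zebrafish rows named 5p and 3p and above 0 in all samples, the 5p arm was higher in all 6 samples in 16, the 3p arm in 14, and 2 were mixed. The arms of a pair stood 16.7-fold apart in the median. For miR-132 the geometric mean ratio was 1.67, and only miR-145 and miR-34c had arms closer in level. Only listed rows enter these pairs, and the lowest zebrafish row, dre-miR-7148-5p, had a mean of 26.6 normalized counts. At means of 80.7 and 49.96, miR-132 could hardly stand apart by as much as the median and keep both arms listed. How far the listing set its place among the pairs was not tested. The SD of the log2 ratio over the samples was 0.29 for miR-132, against a median of 0.50 over the pairs. The ratio of the arms thus varied less from sample to sample than in most pairs. dre-miR-132-5p was also above dre-miR-212-5p in every sample, by 1.67, 2.50 and 2.72 times in stage IIIb replicates 1, 2 and 3, against 1.46, 2.47 and 1.81 times in stage IIIa (exact two-sided permutation test, p = 0.40).

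The similarity of the 3 profiles was also seen as a correlation across the samples. On log2(normalized count + 1) over the 6 samples, Pearson's r was 0.96 between the arms of miR-132, 0.97 between dre-miR-132-3p and dre-miR-212-5p and 0.98 between dre-miR-132-5p and dre-miR-212-5p. As shares of the totals these were 0.92, 0.95 and 0.83. All miRNAs of a sample share its library size parameter, and the samples differ in depth, so r is given as a description without a test. Many other miRNAs had a similar profile, between 38 and 44 of the other 286 reaching an r above 0.9 with a given member. The 3 most alike were aca-miR-101-1-5p, dre-miR-130c-3p and dre-miR-126b-5p for dre-miR-132-3p (r 0.99, 0.99 and 0.98). For dre-miR-132-5p they were dre-let-7c-5p, oga-mir-100-p5 and dre-miR-24 (r 0.99, 0.99 and 0.98). For dre-miR-212-5p they were oga-mir-100-p5, dre-miR-30e-3p and dre-miR-23b (r 0.99, 0.99 and 0.98). On shares the r of dre-miR-132-5p with dre-let-7c-5p was 0.65, while that of dre-miR-212-5p with dre-miR-23b was 0.96.

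Other miRNAs tied to gonadotropins were compared with the same fit. miR-21 is induced by luteinizing hormone in mouse granulosa cells, and miR-143 is lowered by follicle-stimulating hormone in mammals. miR-17a and miR-430b are regulated by hCG in zebrafish follicular cells. The list held the zebrafish rows numbered miR-21, miR-17, miR-430 or miR-143. Of its 6 rows, 0 passed the limma threshold in the higher and 0 in the lower direction, with or without adjustment. Over all 289 miRNAs the share with adjusted p under 0.05 was 2.42% higher and 2.08% lower, and without adjustment 9.69% higher and 5.19% lower, so that 0 of 6 is near the background. Their median log2 fold change was 0.07, against 0.81 for miR-132 and miR-212 and 0.15 for all miRNAs. dre-miR-21 had 101602 ± 28921 normalized counts in stage IIIb and 99573 ± 9908 in stage IIIa (SD, n = 3 each). Its log2 fold change was -0.0020 (95% interval -0.67 to 0.67), at a level far above that of miR-132. dre-miR-17a-5p had a log2 fold change of -0.39, dre-miR-143 of 0.28, dre-miR-430a-3p of 0.41, dre-miR-430b-3p of 0.14 and dre-miR-430c-3p of -0.01, with limma adjusted p values between 0.591 and 0.997. The stage difference of miR-132 or miR-212 was not tested against that of these miRNAs.

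The label of the samples and the presence of other cells were read from marker miRNAs. miR-202, the gonadal miRNA, was abundant in every sample, at 163332 to 234274 ppm in stage IIIb and 160384 to 182315 in stage IIIa. miR-132 is also expressed in neurons, and 3 of the 6 miRNA numbers on the neuron and brain list had rows (miR-9, miR-128 and miR-153), the others not being analysed here. The 5 rows summed to 1387 to 1483 ppm in stage IIIb and 1270 to 2070 in stage IIIa. Among them dre-miR-128-3p had a mean of 2616 normalized counts, dre-miR-153b-3p of 627 and dre-miR-9-5p of 52.6, the last close to the 49.96 of dre-miR-132-3p. The 6 rows of the red blood cell miRNAs miR-451, miR-144 and miR-2188 summed to 904 to 2827 ppm in stage IIIb and 10758 to 14749 in stage IIIa, so the stages did not overlap, and no row of that list was at 0 in any sample. The 8 leucocyte rows summed to 8497 to 11492 ppm in stage IIIb and 12813 to 14377 in stage IIIa, again without overlap on this scale. As normalized counts their stage means went both ways. dre-miR-146a had a mean of 15406 in stage IIIb and 14057 in stage IIIa, and dre-mir-146a-p3 of 120 and 81.5. The other leucocyte rows had lower means in stage IIIb. For the 2 endothelial miR-126 rows the sums were 15736 to 18428 ppm in stage IIIb and 14017 to 21885 in stage IIIa, which overlapped. The liver miRNA dre-miR-122 stood at 22.7 to 293 ppm in stage IIIb and 0 to 50.9 ppm in stage IIIa, listed at 0 in 1 sample. Its means were 339.9 normalized counts in stage IIIb and 63.5 in stage IIIa, with a log2 fold change of 3.35 (limma unadjusted p = 0.0467, adjusted p = 0.314). The 3 smooth muscle rows summed to 110488 to 177245 ppm in stage IIIb and 101134 to 212409 in stage IIIa. Of the 3 miRNA numbers on the skeletal muscle list only 1 had a row, the others not being analysed here. That row, dre-miR-133a-3p, stood at 17.7 to 50.7 ppm in stage IIIb and 40.3 to 55.1 in stage IIIa. The part of these cell types in the levels of miR-132 and miR-212 was not tested. In pooled tissue of this kind, more cells expressing a miRNA and more of it per cell cannot be told apart.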

How the data were processed

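Small RNA of follicular cells was sequenced in 3 pools of stage IIIb and 3 of stage IIIa. The authors processed the reads with ACGT101-miR, aligned them to miRBase precursors with a single mismatch allowed, and deposited a signal per miRNA and sample, the normalized count (reads divided by a library size parameter). Each sample was kept separate. Raw counts were not used here.

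Members were picked by name, and the members and lists were chosen with earlier results of these data known. Named besides are 6 gonadotropin-linked rows, the 3 closest profiles and the nearest levels. The stages were compared with limma 3.58.1 (R 4.3.3) on log2(normalized count + 1), empirical Bayes with a trend, two-sided, without a filter, adjusted by Benjamini-Hochberg over 289 miRNAs. Such fold changes understate changes of low miRNAs. The fit was tested on simulated data, but with independent noise and with changes larger than those of the 3 miRNAs. Shares and arm ratios were compared by exact permutation over 20 assignments. Reads were recovered as value over step, but between 82.8% and 85.9% of values under 400 were whole multiples. They therefore served only for intervals, depth, the chi-square of the replicates and 1 alternative. Depth was 1129114 to 9045233 recovered reads on the listed miRNAs, if the step is 1 read. The paper reports more mappable reads for each stage than these sum to, though not for the listed miRNAs alone. Replicates of a stage differed far beyond counting noise (chi-square per degree of freedom of at least 250.0), so none were merged. Whether pools shared fish was not given, so p-values measure the spread between pools. Alternatives were other pseudocounts, filters, scalings and variance models, the replicate block and leaving out samples.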

Additional observations from a re-analysis of the deposited data

How the results depend on the processing

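The log2 fold changes of the 3 miRNAs kept their sign and stayed at an adjusted p over 0.05 in all 19 limma or linear-model alternatives, from 0.12 to 1.34 for dre-miR-132-3p, 0.10 to 1.24 for dre-miR-132-5p and 0.15 to 0.76 for dre-miR-212-5p. Several of these alternatives leave the fold change unchanged by construction, as given above. With a filter at a mean of 100 normalized counts none of the 3 was tested. The replicate block gave 1.01 for dre-miR-132-3p (limma adjusted p = 0.275), 0.81 for dre-miR-132-5p and 0.55 for dre-miR-212-5p. Same-numbered samples deviated together with correlations of 0.10, 0.28 and -0.03, so the numbers were not taken to pair the pools. The share of dre-miR-212-5p, a log2 ratio of 0.25 between the stage means, was 0.46 when the 10 highest miRNAs were left out of the total and 0.15 without stage IIIa replicate 1.

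Over all 289 miRNAs, the number with a higher level in stage IIIb and adjusted p under 0.05, 7 in limma, was 3 without the trend, 4 with the replicate block, 2 with the block on equal totals, an alternative chosen after seeing the data, 1 without stage IIIa replicate 1 and stage IIIb replicate 3, and from 1 to 6 with 1 sample left out. Other settings raised that number. It was 10 with a filter at a mean of 100 and when centred on the median, and 9 with robust empirical Bayes. A pseudocount of 10 and a filter at a mean of 30 each gave 8. Equal totals and voom weights each gave 5, and size factors and a pseudocount of 0.1 each gave 6. The unmoderated model on untransformed counts gave 0 higher and 0 lower at that threshold, and 16 higher and 16 lower without adjustment. The number higher without adjustment, 28, was 18 with the block on equal totals and from 15 to 45 with 1 sample left out. The number lower without adjustment, 15, was 42 on equal totals with and without the block, 31 with size factors, 29 when centred on the median, 52 with voom weights, and 25 without both samples. The causes were not tested. Depth limits all 3 miRNAs most in stage IIIa replicate 1, with 9 to 20.5 recovered reads each, if the step is 1 read.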
